A study of Mus musculus with 8 samples.

Results

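The CHD family, the chromodomain helicase DNA-binding proteins, was followed through the mouse cortex as 9 genes, Chd1 to Chd9, picked by symbol from the 32285 genes of the series. All 9 were found, and all 9 were measured in each of 8 single-nucleus RNA-seq libraries. The mice were C57BL/6J at postnatal day 25, either wild type (WT, 4 libraries) or carrying 1 inactive copy of Chd8 (Chd8+/-, labelled Chd8het here, 4 libraries), with 2 males and 2 females in each genotype. Each library came from the cerebral cortex of 1 mouse with the medial cortex removed, and the labels describe 4 pairs matched for litter and sex without saying which libraries form a pair. They do not describe the Chd8 allele, nor the cells in which it acts. In each sex and genotype the library numbered 1 was single-indexed and the library numbered 2 dual-indexed. Nuclei were clustered without the 9 genes, and a cluster was given a cell type name only where at least 3 markers of that type were raised in it, so that each name below means a likeness to that type.

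CHD proteins are ATP-driven chromatin remodellers that slide or evict nucleosomes, and they are grouped by the domains beside their paired chromodomains. CHD1 and CHD2 act at transcribed genes. CHD3, CHD4 and CHD5 carry PHD fingers and are alternative motor subunits of NuRD, a complex that couples remodelling to histone deacetylation, and CHD5 is known as the form enriched in neurons. CHD6, CHD7, CHD8 and CHD9 form the subfamily with BRK domains. CHD7 is mutated in CHARGE syndrome and is known to act with SOX10 in oligodendrocyte maturation. Loss of 1 copy of CHD8 is a known cause of autism with a large head. The design asks 2 things of the family, namely where each paralogue is expressed and whether the other 8 paralogues differ in mice with 1 inactive copy of Chd8.

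Promoter sequence is shown for 3 members, Chd8 because the series turns on it, and Chd4 and Chd5 because, as shares of the UMIs of each type, these NuRD motors differed between neurons and glia in opposite directions, although in UMIs per nucleus both were higher in neurons. The sequences are from RefSeq (GRCm38.p6), whose promoter table held 5 of the 9 members (Chd4, Chd5, Chd6, Chd8 and Chd9). Each run ends just before the start of the annotated gene, is written 5′ to 3′ on the strand of the gene, and has its CG dinucleotides in capitals. For Chd8, 20 bases of the window that lie inside the GENCODE gene were left out.
Chd8 (chr14:52257781-52258010, minus strand): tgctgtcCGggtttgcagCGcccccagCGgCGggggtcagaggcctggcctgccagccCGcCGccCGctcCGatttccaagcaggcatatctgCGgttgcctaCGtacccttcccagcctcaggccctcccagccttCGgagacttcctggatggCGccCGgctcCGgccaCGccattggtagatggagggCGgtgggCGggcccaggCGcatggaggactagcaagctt
Chd4 (chr6:125095731-125095980, plus strand): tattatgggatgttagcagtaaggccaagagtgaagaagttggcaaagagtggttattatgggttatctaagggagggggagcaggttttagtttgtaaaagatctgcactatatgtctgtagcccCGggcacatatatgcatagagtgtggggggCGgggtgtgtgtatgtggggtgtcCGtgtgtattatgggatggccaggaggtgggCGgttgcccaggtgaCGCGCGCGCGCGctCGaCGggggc
Chd5 (chr4:152338401-152338650, plus strand): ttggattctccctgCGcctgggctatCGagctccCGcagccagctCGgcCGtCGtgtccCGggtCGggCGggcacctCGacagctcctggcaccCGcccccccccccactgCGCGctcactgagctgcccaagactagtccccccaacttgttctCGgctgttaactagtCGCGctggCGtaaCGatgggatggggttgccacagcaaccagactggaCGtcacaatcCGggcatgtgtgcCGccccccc
The table gives a pair of windows each for Chd4 and Chd5, for different start sites, and those shown lie wholly before the annotated gene. The whole windows of 250 bases held 20 CG dinucleotides for Chd8, 12 for Chd4 and 21 for Chd5, where the median over 32851 promoter windows of that length was 6. As few CG dinucleotides as these were found in 83.7% of the windows for Chd8, 68.5% for Chd4 and 85.2% for Chd5. The other Chd4 window (chr6:125095913-125096162), which reaches into the gene, held 23 (88.0%), and the other Chd5 window, 3 bases further on, held 22. The letters GGGCGG, on either strand, were present in all 3 runs printed and in 32.7% of all windows. These counts describe the letters only.

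The libraries held 69503598 to 98132783 UMIs (molecules counted once by their barcode) in 97772 barcodes. After filters on genes, mitochondrial RNA and doublets, 77890 nuclei were kept, 7503 to 10988 in a library, with a median of 4970 to 7467 UMIs per nucleus. Of these, 61735 nuclei (79.3%) lay in 25 clusters that could be named, in 19 cell types with at least 30 nuclei in every library. They comprised 8 excitatory and 4 inhibitory neuron types, 5 glial groups and 2 vascular groups. One of the clusters of oligodendrocyte precursor cells, with 134 nuclei, was led by genes that include the cell-cycle genes Top2a and Cenpf, with 7 of 7 precursor markers raised. Pairs of libraries shared 27 to 63 barcodes, at most 0.474% of the smaller library. Among clusters left unnamed and outside every type, 1 took 87.0% and another 75.2% of its nuclei from 1 library. Chd9 gave 183910 UMIs over all nuclei and Chd7, with the fewest, gave 15013. Levels are UMIs of a gene per 1000000 UMIs of the same nuclei (CPM), so a level says what share of the RNA in a type came from a gene. Values over all nuclei mix cell types, and there fewer cells of a type and less RNA per cell cannot be told apart.

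No difference in Chd8 RNA between the genotypes passed the test, over all nuclei or in any cell type. Chd8 encodes the remodeller whose gene was targeted (chr14:52198151-52257780 in GRCm38, minus strand, protein coding). On CPM scaled for library composition, it stood at 76.1 in WT male 1, 82.6 in WT male 2, 79.9 in WT female 1 and 80.4 in WT female 2. It stood at 76.4 in Chd8het male 1, 87.3 in Chd8het male 2, 76.9 in Chd8het female 1 and 76.7 in Chd8het female 2. The groups overlapped: Chd8het male 2 was the highest library and WT male 1 the lowest, and the other 3 libraries labelled Chd8het lay between WT male 1 and the other WT libraries. WT averaged 79.8 ± 2.68 CPM and Chd8het 79.3 ± 5.35 CPM (SD, n = 4 each). The log2 change was -0.01 (SE 0.07, 95% interval -0.17 to 0.16, adjusted p = 1.00 by edgeR's quasi-likelihood test with Benjamini-Hochberg adjustment over all genes). Chd8 was higher in Chd8het in 2 of the 4 pairs formed by sex and library number. In the single-indexed libraries Chd8het minus WT was -1.38 CPM and in the dual-indexed libraries 0.51 CPM.

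The level of Chd8 RNA does not check the genotype of a library. The counts come from the 3′ end and do not separate the alleles, and an inactive copy can still be transcribed through that end. The gene also overlaps Gm26590 on the opposite strand, which gave 9893 UMIs beside 45187 for Chd8, and no source used here says whether strand entered the counting. The p-values and intervals measure the spread between these libraries, 1 from each mouse. That spread includes index type, which was not a term of the main test. Over all nuclei 1.39% of genes had an unadjusted p under 0.05 by edgeR in the main test, and 5.66% with index type added.

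Within the 19 cell types Chd8 was higher in Chd8het in 8 and lower in 11, and none of these differences passed the test. The estimates ran from a log2 change of -0.26 in Vip interneurons (95% interval -0.64 to 0.12) to 0.24 in Lamp5 interneurons (95% interval -0.10 to 0.58). All 20 lower bounds, all nuclei included, lay above -1, the value that a loss of all RNA from 1 of 2 alleles would give, and the lowest of them was -0.64. In L5 ET neurons, the corticofugal projection neurons of layer 5, Chd8 stood at 88.3 ± 8.50 CPM in WT and 101 ± 15 CPM in Chd8het (SD, n = 4 each). It was higher in Chd8het there in 4 of 4 pairs, with a log2 change of 0.18 (adjusted p = 1.00 by edgeR). In oligodendrocytes it was lower in Chd8het in 4 of 4 pairs, with a log2 change of -0.15 (95% interval -0.52 to 0.23). These pairs were formed by sex and library number. Agreement of 4 pairs has a p of 0.125 (exact sign-flip permutation test, 2-sided), so some of 19 types can agree without any change.

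**Figure D1:**
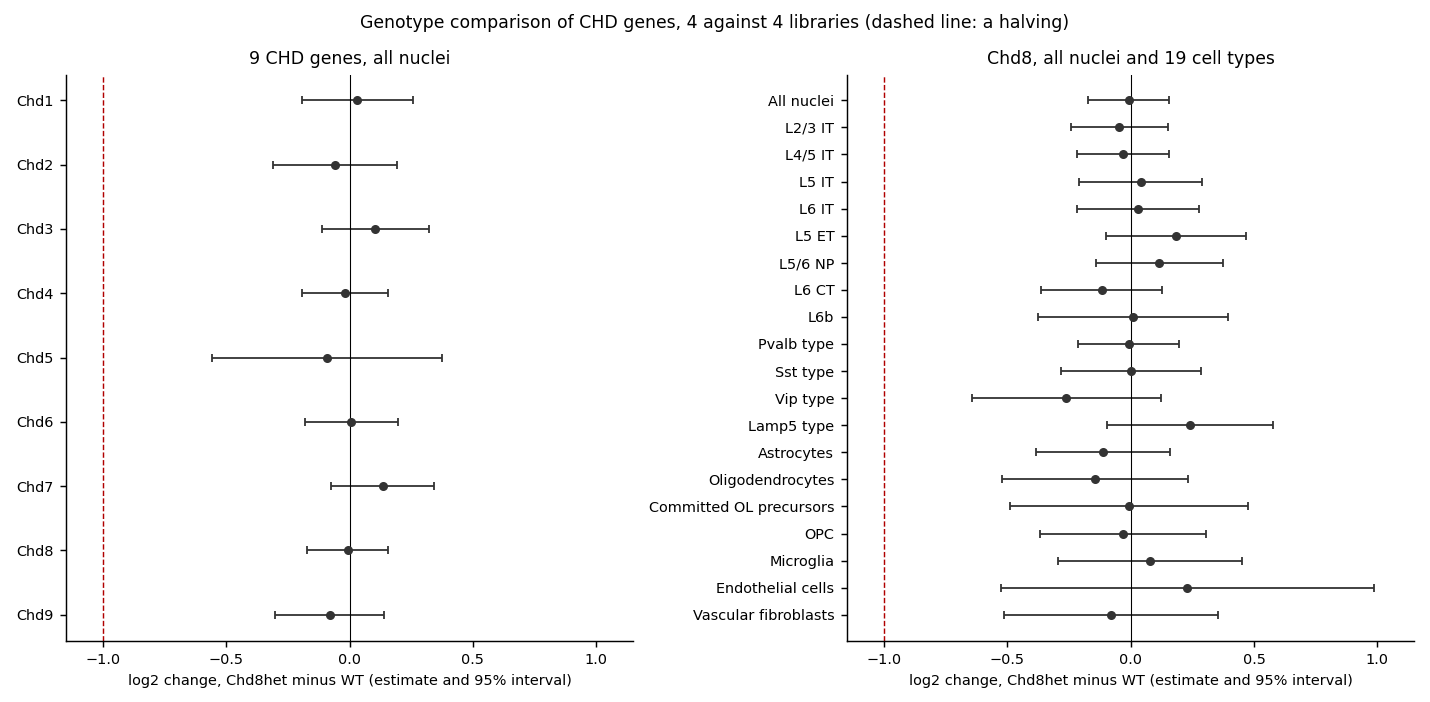
Log2 change of Chd8het against WT with its 95% interval, for the 9 CHD genes in all nuclei (left) and for Chd8 in all nuclei and 19 cell types (right), from 4 against 4 libraries. Every interval shown covers 0, and every interval for Chd8 lies above the dashed line at -1.

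The 8 paralogues showed no change with genotype that passed the test. Over all nuclei 0 of 21225 genes were called (0%, with 295 genes at an unadjusted p under 0.05), and over the 19 cell types 1 of 202370 tests was called (0.000494%, or 66 calls when the pairs of sex and library number were a block). Against that background, 0 of 175 tests of the 9 members were called by edgeR, 0 with the pairs as a block and 0 of 180 by DESeq2, with 2, 3 and 2 of them at an unadjusted p under 0.05. The smallest adjusted p was 0.996 by edgeR and 0.257 with the block. Of the 8 paralogues, 4 had a positive and 4 a negative estimate over all nuclei, and their median was -0.01. Over the cell types the 155 tests of the paralogues, all nuclei included, had 95% intervals that stayed above -1 in 155 and below 1 in 150.

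Each paralogue's estimate over all nuclei was small beside its interval. Chd1, of transcribed chromatin, had a log2 change of 0.03 (95% interval -0.19 to 0.26), and its close relative Chd2 had -0.06 (-0.31 to 0.19). Among the NuRD motors, Chd3 had 0.10 (-0.11 to 0.32), Chd4 had -0.02 (-0.19 to 0.15) and Chd5 had -0.09 (-0.56 to 0.38). In the subfamily of Chd8, Chd6 had 0.01 (-0.18 to 0.20), Chd9 had -0.08 (-0.30 to 0.14) and Chd7 had 0.13 (-0.07 to 0.34). Chd7 stood at 25.2 ± 1.2 CPM in WT and 27.6 ± 2.42 CPM in Chd8het (SD, n = 4 each) and was higher in Chd8het in 4 of 4 pairs, but its groups overlapped and it did not pass the test (adjusted p = 1.00 by edgeR).

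Counted by direction over cell types, Chd1 was higher in Chd8het in 14 of 19 types and Chd7 in 13 of the 15 types where it was tested. Chd9 was lower in 15 of 19 types and Chd2 in 12. Chd3 was higher in 11 of 19, Chd4 in 8, Chd5 in 7 of 18 and Chd6 in 10 of 19. The cell types come from the same 8 libraries, so these counts are not independent of one another. Chd8het male 2 had the highest level over all nuclei for 6 of the 9 members (Chd1, Chd3, Chd4, Chd5, Chd7 and Chd8). How often that library was highest among all genes was not counted, so this is not shown to be particular to the members. Without that library Chd1 was higher in Chd8het in 8 of 19 types, Chd5 in 3 of 18, Chd7 in 10 of 15 and Chd8 in 5 of 19. Chd3 stayed at 11 of 19, Chd6 was at 11, Chd9 at 5, and Chd2 and Chd4 at 6 each. The library was picked for its high levels in Chd8het, so lower counts without it could be foreseen and test nothing.

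Chd3 in oligodendrocytes had the larger of the 2 estimates at an unadjusted p under 0.05. Its scaled level was 59.9 CPM in WT male 1, 33.0 in WT male 2, 56.6 in WT female 1 and 47.4 in WT female 2. It was 75.0 CPM in Chd8het male 1, 70.2 in Chd8het male 2, 72.6 in Chd8het female 1 and 69.0 in Chd8het female 2. All 4 Chd8het libraries lay above all 4 WT libraries, with means of 71.7 ± 2.67 against 49.2 ± 12 CPM (SD, n = 4 each). This gene and type were singled out from 175 tests by their p, so the separation is no further support for a change. The log2 change was 0.54 (SE 0.17, 95% interval 0.16 to 0.92), and it did not pass the correction over all genes (adjusted p = 0.999 by edgeR, 0.257 with the pairs as a block). In the committed oligodendrocyte precursors, where Chd3 is most abundant, its change was -0.12, and in oligodendrocyte precursor cells (OPC) it was 0.03.

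Marker RNA of neighbouring cells in the oligodendrocyte libraries was read beside that estimate. The summed level of 6 committed precursor markers was 906 to 1138 CPM in WT and 916 to 1109 CPM in Chd8het, and Bmp4, 1 of them, was at 0.61 CPM. The sum of 7 neuronal genes was 2026 to 2704 CPM in WT and 2441 to 3250 CPM in Chd8het, and the sum of 7 OPC markers was 98.3 to 136 CPM in WT and 120 to 186 CPM in Chd8het. The neuronal and OPC sums were thus higher on average in Chd8het, and their part in the Chd3 estimate was not tested.

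Chd7 in L2/3 IT neurons was the other estimate at an unadjusted p under 0.05. It was scarce there, at 4.40 ± 0.87 CPM in WT and 6.02 ± 0.45 CPM in Chd8het (SD, n = 4 each). It was higher in Chd8het in 4 of 4 pairs, with a log2 change of 0.46 (95% interval 0.04 to 0.87, adjusted p = 1.00 by edgeR). In the cells where Chd7 is abundant its changes were 0.14 in oligodendrocytes, 0.06 in OPC, 0.02 in committed precursors and 0.02 in microglia. The sum of 7 OPC markers in L2/3 IT neurons was 179 to 226 CPM in WT and 203 to 256 CPM in Chd8het, and its part in the Chd7 estimate was not tested.

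Sex gave no call among the members. Over all nuclei and the 19 types, 122 of 223595 tests (0.0546%) were called for sex, and 0 of the 175 member tests, with 6 at an unadjusted p under 0.05. The largest of those estimates was Chd5 in oligodendrocytes, with a log2 difference of females minus males of -0.83 (adjusted p = 1.00 by edgeR), and the smallest p was for Chd4 in committed precursors, at -0.56 (adjusted p = 0.986 by edgeR). The test of whether the genotype change differs between the sexes called 0 of 223595 tests (0%) and 0 of the members by edgeR, with 0 member tests at an unadjusted p under 0.05. The difference between neurons and glia was also compared between genotypes. The smallest of the 9 p-values was 0.0857 for Chd5 (exact permutation test of 4 against 4 libraries, 2-sided, adjusted p = 0.579), where the smallest p the design allows is 0.0286. With libraries of the same sex and number taken as pairs, the Chd5 difference was smaller in Chd8het in 4 of 4 pairs and so was that of Chd3, and the Chd6 difference was larger in 4 of 4. Each had the smallest p that 4 pairs allow, 0.125 (exact sign-flip permutation test, 2-sided, adjusted p = 0.375), so no call was possible.

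The partner genes of the CHD complexes were taken from 6 lists of 30 genes in all, 1 of which is no partner but a noncoding RNA that overlaps Chd2. Over all nuclei 29 of them were tested and 0 were called by edgeR, with 0 at an unadjusted p under 0.05; 13 were higher and 16 lower in Chd8het, with a median log2 change of -0.02. Over the cell types 0 of 492 tests were called, with 6 at an unadjusted p under 0.05, 232 higher and 260 lower, and a median of -0.01. The median over the 166 cell type tests of the members was -0.00. Of the 12 NuRD partners, which hold the deacetylases and the methyl-CpG-binding subunits, 7 were higher and 5 lower over all nuclei. Of the 6 genes tied to CHD8 (the WRAD subunits of histone methyltransferases, Ctcf and Ctnnb1), 2 were higher and 4 lower. The listed genes with the smallest p-values were Cbx1, a heterochromatin protein that sits with CHD4 in the ChAHP complex, at a log2 change of -0.10, and Mbd3, a core subunit of NuRD, at 0.20. The third was 1810026B05Rik, that noncoding RNA on the strand of Chd2, at -0.12, and all 3 had an adjusted p of 1.00 by edgeR.

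Each paralogue had its own profile over the cell types. On CPM Chd8 was the flattest of the 9, with a ratio of 1.59 between its highest and lowest type. Chd7 was the steepest, at 94.2. In UMIs per nucleus the order was another. L5 ET neurons led for 7 of the 9 members, Chd8 included, and committed precursors led for Chd3 and Chd7. On that scale the ratio of highest to lowest type was 8.49 for Chd8, with Chd1 (4.66), Chd2 (5.74), Chd4 (5.98) and Chd9 (7.91) flatter, and 42.2 for Chd7. Neighbours in the order of mean CPM could not be told apart by the test used: with 162 tests and 8 libraries, 26 at the smallest possible p of 0.00781 would be needed for any to pass the adjustment, and 15 reached it (exact sign-flip permutation test, 2-sided, 27 at an unadjusted p under 0.05). The libraries of both neighbours did not overlap in 5 of the 162 steps, which were Chd3 in committed precursors over vascular fibroblasts, Chd7 in microglia over astrocytes and in Vip over Pvalb interneurons, and Chd9 in microglia over astrocytes and in astrocytes over vascular fibroblasts. The order was made from these same values, so these steps describe it and give it no further support. Such steps were not counted for other genes. When each nucleus was named by its own marker score in place of its cluster, the leading type was the same for 9 of 9 members. The lowest type changed for Chd2, to committed precursors at 142 CPM, and for Chd9, to oligodendrocytes at 226 CPM.

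**Figure D2:**
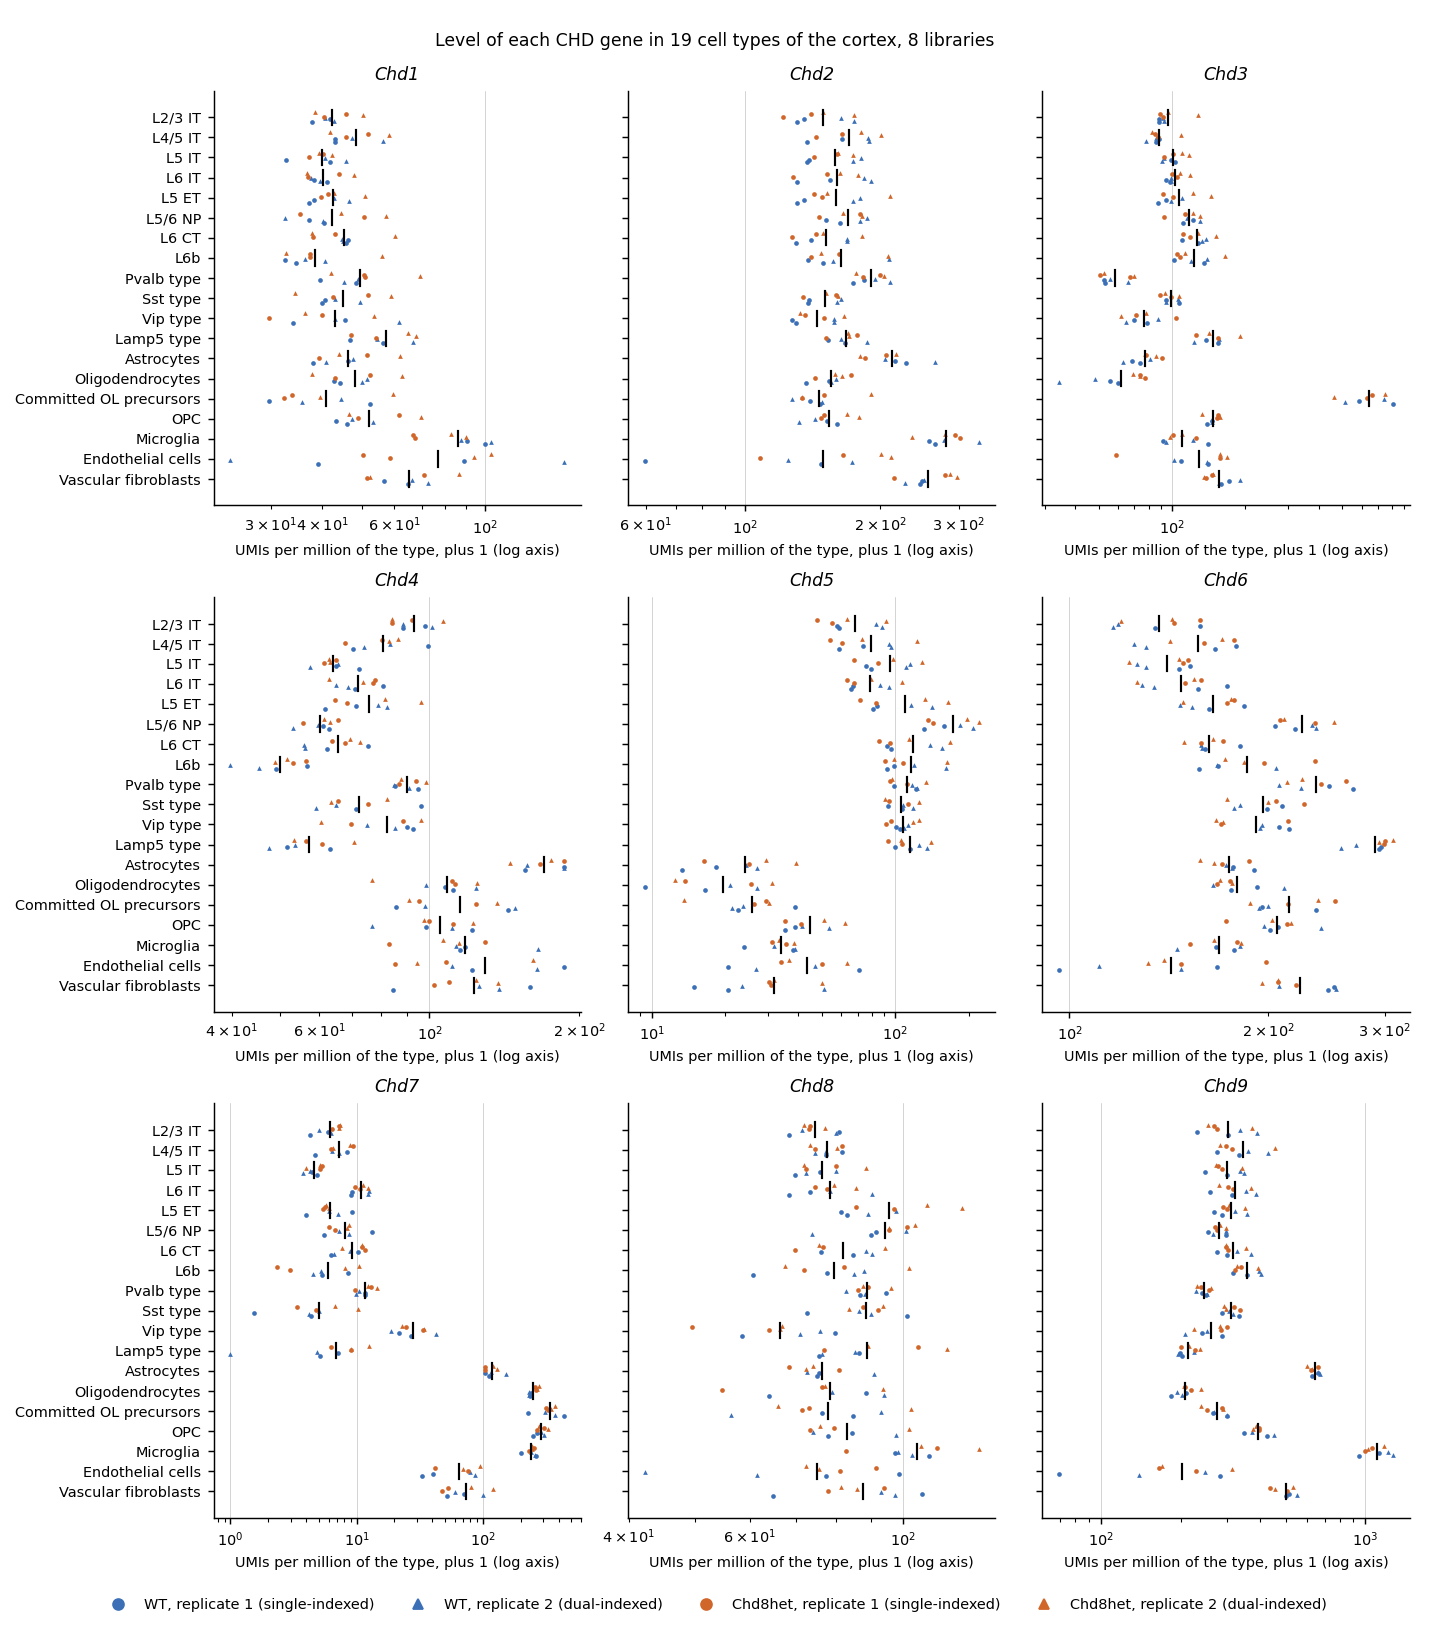
CPM, plus 1, on a log axis, for each CHD gene (panels) in 19 cell types (rows). Points are the 8 libraries, coloured by genotype and shaped by library number, and the black bar is their mean. Chd7 spans 3.61 to 340 CPM while Chd8 spans 65.5 to 104 CPM.

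On CPM Chd1 and Chd2 were both highest in microglia. In UMIs per nucleus both were highest in L5 ET neurons, at 0.586 for Chd1 and 2.24 for Chd2. On that scale Chd1 was lowest in astrocytes, at 0.126, and Chd2 in endothelial cells, at 0.390. Chd1 (chr17:15704967-15772610, plus strand) stood at 85.0 ± 13.4 CPM in microglia (SD, n = 8 here and below) and at 37.5 CPM in L6b neurons, a ratio of 2.27. Microglia led in 4 of the 8 libraries, and 1 library of the small endothelial group reached 155 CPM, so that the lead over endothelial cells (75.9 CPM) was within the spread. Chd2 (chr7:73426638-73541830, minus strand) stood at 280 ± 29.4 CPM in microglia and at 144 CPM in Vip interneurons, with microglia leading in 6 of 8 libraries and vascular fibroblasts next at 256 CPM. Chd2 overlaps 1810026B05Rik on its own strand and Gm44686 on the opposite strand, with 22015 and 35575 UMIs beside 91603 for Chd2, so reads in the shared stretch could have been split among them.

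On CPM the NuRD motors Chd3, Chd4 and Chd5 had distinct cell types at the top. Chd4 (chr6:125095981-125130591, plus strand), the widespread motor of NuRD, was highest in astrocytes at 169 ± 16.2 CPM, in 7 of 8 libraries, and lowest in L6b neurons at 49.1 ± 5.69 CPM. Its astrocyte libraries held 144 to 185 CPM and its L6b libraries 38.8 to 55.6 CPM, without overlap. These ends were picked from the same values, and they hold for CPM alone. In UMIs per nucleus Chd4 was highest in L5 ET neurons, at 1.06, and lowest in microglia, at 0.177. Chd5 (chr4:152338651-152390194, plus strand), the neuronal form, was highest in the near-projecting neurons of layers 5 and 6 (L5/6 NP) at 171 ± 34.3 CPM, in 8 of 8 libraries, and lowest in oligodendrocytes at 18.6 CPM. Its L5/6 NP level was 130 to 157 CPM in the 4 single-indexed libraries and 183 to 218 CPM in the 4 dual-indexed ones. In UMIs per nucleus Chd5 was highest in L5 ET neurons, at 1.55, and lowest in microglia, at 0.0499. Chd3 (chr11:69343273-69369406, minus strand) was highest in committed oligodendrocyte precursors, described below, and among neurons was highest in Lamp5 interneurons at 147 CPM and lowest in Pvalb interneurons at 57.3 CPM.

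In the subfamily of Chd8 the top types on CPM were microglia, interneurons and the oligodendrocyte lineage. Chd8 itself was highest in microglia at 104 ± 13.3 CPM, in 4 of 8 libraries, followed by L5 ET neurons at 94.5 CPM and L5/6 NP neurons at 93.1 CPM, and lowest in Vip interneurons at 65.5 CPM. In UMIs per nucleus microglia were lowest for Chd8, at 0.158, and L5 ET neurons highest, at 1.34. The microglial libraries of Chd8 ran from 81.8 to 128 CPM and the Vip libraries from 48.5 to 78.8 CPM, so the ends of the order did not overlap while its middle did. That gap depends on how nuclei were named. With each nucleus named by its own marker score, Chd8 ran from 85.9 to 133 CPM in microglia and from 59.2 to 89.2 CPM in Vip neurons, so the ends overlapped. Chd6 (chr2:160946978-161109075, minus strand) was highest in Lamp5 interneurons at 289 ± 17.0 CPM, in 8 of 8 libraries, followed by Pvalb interneurons at 235 CPM, and lowest in L2/3 IT neurons at 135 CPM. Chd9 (chr8:90828352-91054516, plus strand) was highest in microglia, with 947 to 1270 CPM over the libraries and a mean of 1101 ± 115 CPM. The highest library of any other type was at 674 CPM, in astrocytes, whose mean was 641 ± 25.9 CPM, and endothelial cells were lowest at 201 CPM.

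Chd7 (chr4:8690406-8867659, plus strand) was plentiful in glia and scarce in neurons. The vascular groups lay between on average, at 72.5 ± 26.2 CPM in vascular fibroblasts and 64.2 ± 23.6 CPM in endothelial cells. Among glia Chd7 stood at 340 ± 61.9 CPM in committed precursors, 287 ± 24.1 CPM in OPC, 251 ± 17.3 CPM in oligodendrocytes, 242 ± 19.8 CPM in microglia and 117 ± 17.0 CPM in astrocytes. The 8 excitatory types held 3.61 to 9.90 CPM, with L5 IT neurons lowest. Among interneurons Chd7 was at 4.05 CPM in Sst, 5.86 in Lamp5, 10.7 in Pvalb and 27.3 ± 8.10 CPM in Vip neurons. The lowest Vip library, at 17.8 CPM, lay above the highest library of every other neuronal type, 13.5 CPM in Pvalb neurons. That gap depends on how nuclei were named: with each nucleus named by its own marker score, Chd7 was at 23.6 ± 7.54 CPM in Vip, 18.5 ± 8.66 in Lamp5, 15.2 ± 4.32 in Pvalb and 9.70 ± 4.74 CPM in Sst neurons. The lowest Vip library was then at 11.4 CPM and the highest Lamp5 library at 36.4 CPM, so the interneuron types overlapped. The OPC marker sum was 747 CPM in Vip neurons and 814 CPM in L6b neurons, where Chd7 was at 4.94 CPM, beside 11026 CPM in OPC, and its part in the Vip level was not tested.

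The oligodendrocyte lineage, which runs from OPC through committed precursors to myelinating oligodendrocytes, gave the members different courses. The committed precursors were recognised by 6 markers, which summed to 8186 CPM there, 1204 CPM in OPC and 992 CPM in oligodendrocytes. Among them, Bmp4, a signal of newly committed cells, was at 137, 10.9 and 0.61 CPM, Gpr17, a receptor of that stage, at 227, 147 and 9.28 CPM, and Enpp6, a marker of newly formed oligodendrocytes, at 748, 41.6 and 135 CPM. The group held 98 to 153 nuclei in a library.

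Chd3 peaked in the committed precursors. Its level there was 807 CPM in WT male 1, 514 in WT male 2, 587 in WT female 1 and 739 in WT female 2. It was 630 CPM in Chd8het male 1, 463 in Chd8het male 2, 663 in Chd8het female 1 and 744 in Chd8het female 2. The mean of 643 ± 119 CPM compares with 146 ± 8.15 CPM in OPC and 60.5 ± 15 CPM in oligodendrocytes, and the lowest of the 8 libraries exceeded the highest library of any other type, 190 CPM in Lamp5 interneurons. Within a library the level was 2.97 to 5.83 times that in OPC (mean 4.46 ± 1.01) and 6.35 to 15.6 times that in oligodendrocytes (mean 11.3 ± 3.40). Named by its own marker score, the group gave 664 ± 122 CPM.

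Chd7 and Chd9 ran otherwise through the lineage. Chd7 was highest in the committed precursors in 7 of 8 libraries, and WT female 1 was the exception, with 228 CPM there and 268 CPM in OPC. Its level in committed precursors was 0.85 to 1.76 times that in OPC. On CPM Chd9 fell along the lineage in 8 of 8 libraries, from 392 CPM in OPC to 274 CPM in committed precursors and 207 CPM in oligodendrocytes. Its mean in UMIs per nucleus was 1.19 in OPC, 1.2 in committed precursors and 0.727 in oligodendrocytes, so the first step was not a fall on that scale. Chd5 fell in the same order on CPM in 6 of 8 libraries. Chd8 had no such course on CPM: it stood at 82.1 CPM in OPC, 77.0 CPM in committed precursors and 77.4 CPM in oligodendrocytes, and its committed precursor level was 0.57 to 1.26 times that in OPC.

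**Figure D3:**
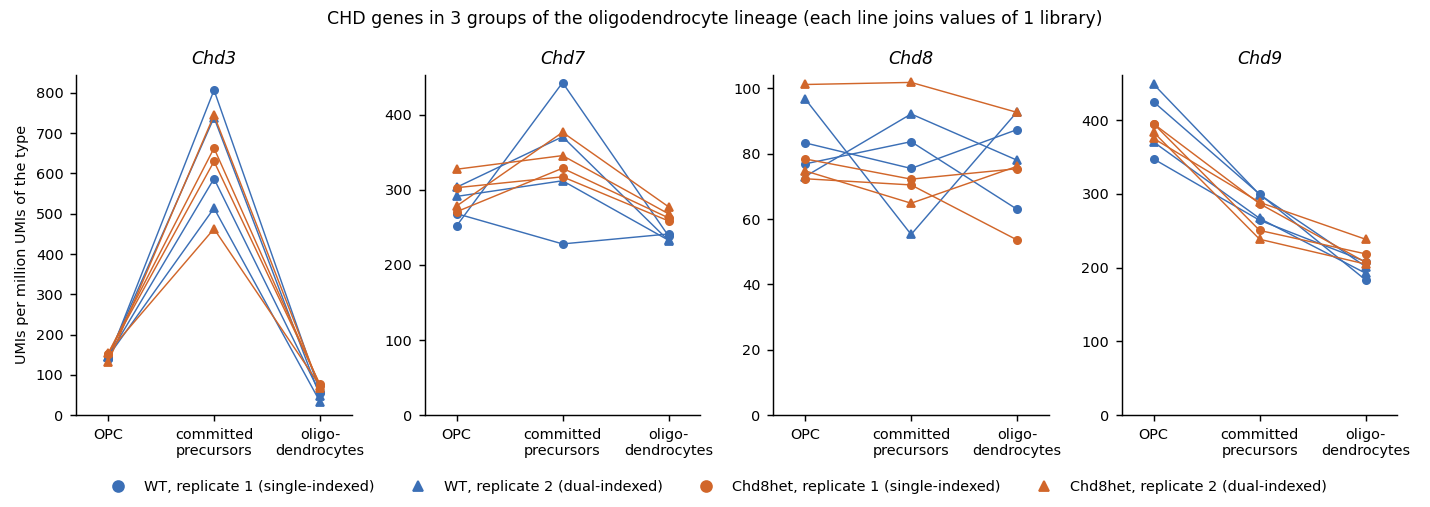
CPM (vertical axes from 0, one scale per panel) for Chd3, Chd7, Chd8 and Chd9 in OPC, committed precursors and oligodendrocytes, where each line joins the values of 1 library. All 8 Chd3 lines peak in the middle group, at 463 to 807 CPM, and all 8 Chd9 lines fall from left to right.

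Between OPC and mature oligodendrocytes, 5 of the 9 members differed on CPM, all higher in OPC. The same test over all 14306 genes that reached a mean of 10 CPM in some type, adjusted over those genes, called 48.7% of them, 29.6% as higher in OPC, with a median log2 difference of 0.13. The log2 differences were 1.29 for Chd3, 1.27 for Chd5, 0.92 for Chd9 and 0.19 for Chd7, each in 8 of 8 libraries (adjusted p = 0.0141, exact sign-flip permutation test with adjustment over the 36 comparisons of the members alone), and 0.20 for Chd6 in 7 of 8 (adjusted p = 0.0234, same permutation test). Chd1 (0.11) did not pass, but it did with doublets kept (0.13, adjusted p = 0.0433) and without WT female 2 (0.15, adjusted p = 0.0268, same permutation test). In UMIs per nucleus Chd3, Chd5 and Chd9 still passed, Chd6 (-0.0061, adjusted p = 0.914) and Chd7 (-0.021, adjusted p = 0.744) did not, and Chd2 (-0.22, adjusted p = 0.0128) and Chd4 (-0.25, adjusted p = 0.0417) passed as lower in OPC, all by the same permutation test, where 49.5% of all genes passed. With adjustment over all genes the call of Chd4 was lost (adjusted p = 0.0601, same permutation test). Between microglia and astrocytes, 8 of the 9 differed on CPM: Chd7 (1.04), Chd1 (0.90), Chd9 (0.77), Chd5 (0.55), Chd3 (0.51), Chd8 (0.45) and Chd2 (0.40) were higher in microglia, and Chd4 was lower, at -0.54. Over all genes 62.8% were called, and the median log2 difference was 0.31, towards microglia as for 7 of the members. The difference for Chd6 was -0.05 and did not pass (adjusted p = 0.372, same permutation test). Microglia held less RNA, with a median of 1271 to 1648 UMIs per nucleus beside 2281 to 2987 in astrocytes. In UMIs per nucleus 64% of all genes passed, with a median of -0.33. On that scale Chd6 (-0.89) and Chd2 (-0.46, adjusted p = 0.0128 each) and Chd8 (-0.39) and Chd3 (-0.34, adjusted p = 0.0225 each, same permutation test) passed as lower in microglia. Chd1 (0.04, higher in 4 of 8 libraries, adjusted p = 0.755, same permutation test), Chd5 (-0.26) and Chd9 (-0.09) did not pass, and of the 9 members Chd7 and Chd4 passed in the same direction on both scales.

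Neurons and glia differed for 6 of the 9 members on the CPM scale, where 82.8% of all genes were called and the median log2 difference over them was -0.29. Chd5 was higher in the 12 neuronal types than in 4 glial types (astrocytes, oligodendrocytes, OPC and microglia, without the committed precursors), by a log2 difference of 1.86 ± 0.18 (SD, n = 8). Chd7 was lower by -4.80 ± 0.21, Chd4 by -0.79, Chd9 by -0.75, Chd1 by -0.34 and Chd2 by -0.28, each in 8 of 8 libraries (adjusted p = 0.0141, exact sign-flip permutation test). For Chd9 and Chd2 the glial types did not all go that way. Chd9 averaged 315 CPM over the excitatory types, beside 207 in oligodendrocytes, 392 in OPC, 641 in astrocytes and 1101 in microglia. Chd2 averaged 159 CPM over the excitatory types, beside 155 in oligodendrocytes, 153 in OPC, 212 in astrocytes and 280 in microglia. Chd3 (0.11, adjusted p = 0.131), Chd6 (-0.00, adjusted p = 0.930) and Chd8 (-0.04, adjusted p = 0.372, all by the permutation test) did not pass. The Chd3 difference depended on which nuclei and types entered: with the stricter filter (at least 1000 genes and at most 1% mitochondrial UMIs) it was 0.25 and passed as higher in neurons (adjusted p = 0.0234, same permutation test). With the committed precursors added as a glial type, an alternative chosen after seeing the data, Chd3 was lower in neurons in 8 of 8 libraries, by a log2 difference of -0.44 (adjusted p = 0.0141, same permutation test), and the other 8 members kept their direction and their side of the threshold.

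The direction of most of these differences depends on the scale, since neuronal nuclei held more UMIs. L2/3 IT nuclei had a median of 7636 to 11408 UMIs and astrocyte nuclei 2281 to 2987. In UMIs per nucleus, all 9 differences passed the same permutation test: Chd8 was higher in neurons by a log2 difference of 1.74, Chd6 by 1.80, Chd3 by 1.90, Chd2 by 1.53, Chd1 by 1.42, Chd9 by 1.07 and Chd4 by 1.00, where on CPM 6 of these 7 were not higher. The same scale called 95% of all genes and moved their median from -0.29 to 1.25, so that Chd4 and Chd9 lay below the median gene on both scales. Chd5 (3.53) and Chd7 (-2.97) kept both their direction and their call on either scale. Over all 4 contrasts, 25 of 36 comparisons passed on CPM and 27 in UMIs per nucleus, beside 63.1% and 69.8% of the tests over all genes. Of the 36, 9 passed in the same direction on both scales and 9 in opposite directions. With adjustment over all genes, 24 passed on CPM and 26 in UMIs per nucleus.

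**Figure D4:**
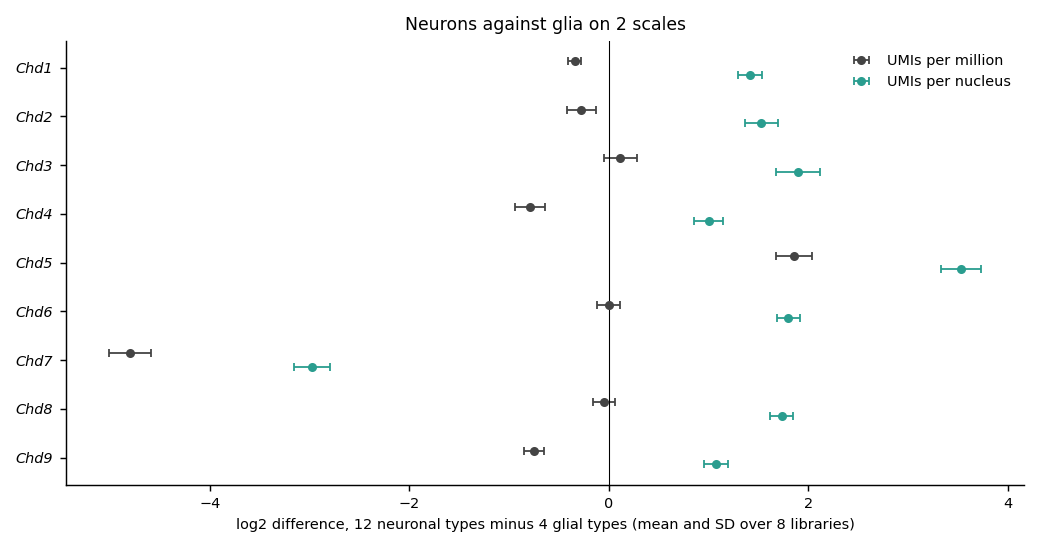
Log2 difference of 12 neuronal types minus 4 glial types for each CHD gene, as the mean and SD over 8 libraries, on CPM (grey) and UMIs per nucleus (green). Chd5 lies right of 0 and Chd7 left of 0 on both scales, while the means of Chd1, Chd2, Chd4, Chd6, Chd8 and Chd9 lie left of 0 on CPM and right of 0 in UMIs per nucleus, although on CPM Chd6 and Chd8 did not pass.

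Between excitatory and inhibitory neurons, 6 of the 9 members passed on CPM, where 58% of all genes did, and 7 in UMIs per nucleus, where 70.8% did. The median log2 difference over all genes was -0.09 on CPM and 0.27 in UMIs per nucleus. Chd9 (0.30) and Chd3 (0.25) were higher in excitatory types on average, and they passed in the same direction in UMIs per nucleus. The inhibitory types differed among themselves. Chd3 was at 147 CPM in Lamp5 neurons, above L6 CT, the highest excitatory type, at 126 CPM, but at 97.6 in Sst, 75.7 in Vip and 57.3 in Pvalb neurons. Named by own marker score, Sst neurons held 317 CPM of Chd9, within the 292 to 349 CPM of the excitatory types, and the other inhibitory types 227 to 257 CPM. Chd8 (0.43), Chd2 (0.41) and Chd5 (0.29) passed as higher in excitatory types in UMIs per nucleus alone. Chd6 (-0.47), Chd1 (-0.18) and Chd4 (-0.10) were lower in excitatory types on CPM, but in UMIs per nucleus Chd1 (0.25) and Chd4 (0.34) were higher there and Chd6 (-0.02, adjusted p = 0.448, permutation test) did not pass. Chd7 was lower as well on CPM, at -0.47 (adjusted p = 0.0450, exact sign-flip permutation test). That call was lost without any 1 of WT male 1, WT female 2 or the 4 Chd8het libraries (adjusted p = 0.0865 to 0.0900), with a pseudocount of 0.1 CPM in place of 1 (adjusted p = 0.171), with adjustment over all genes (adjusted p = 0.0517), and in UMIs per nucleus (-0.10, adjusted p = 0.503, all by the permutation test).

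Chd5 in glia was set beside neuronal RNA found in the same nuclei. Its level in the 7 glial and vascular groups was 18.6 to 43.8 CPM, which is 18.0 to 42.2% of its mean of 104 CPM in excitatory neurons. The median share for 7 genes of the neuronal list ran from 22.0% in oligodendrocytes to 56.8% in endothelial cells. In OPC, where Chd5 was at 42.2%, that median was 30.2%, and in oligodendrocytes, where Chd5 was at 18.0%, it was 22.0%. The shares of Chd5 lay inside the range of the 7 genes in all 7 groups. That range was wide, reaching 109.9% in OPC and 210.9% in microglia, so lying inside it was a weak condition. In OPC Chd5 lay above Rbfox3, Syt1, Snap25, Camk2a and Meg3 and below Slc17a7 and Nrgn. In oligodendrocytes it lay above Rbfox3, Syt1 and Meg3 and below the rest. The part of neuronal RNA in the glial level of Chd5 was not tested.

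Some members shared a profile over the 19 types. As a description, with the types sharing 8 libraries and differing in depth, Pearson's r of mean log2 levels was 0.79 between Chd4 and Chd7, both highest in glia. It was -0.86 between Chd4 and Chd5 and -0.87 between Chd5 and Chd7. Chd2 and Chd9, both led by microglia, had 0.80, Chd1 and Chd2 had 0.64, and Chd8 was most like Chd2, at 0.57. The profile of Chd3 had no r above 0.30 with any other member.

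Among 14297 genes the profiles most like each member's were named by the same measure over the 19 types. For Chd5 they were Disp2 (0.97), Nrg3 (0.97) and Cstf2 (0.96), and for Chd7 Cd9 (0.96), Tns3 (0.96), which is also 1 of the committed precursor markers, and Wipf1 (0.95). For Chd1 they were Snu13 (0.92), Yrdc (0.92) and Itm2b (0.91), for Chd2 Pon3, Mypopos and Gm16576 (0.91 each), and for Chd4 Oplah (0.91), Zfp24 (0.91) and Acad12 (0.90). Likeness was weaker for Chd9, with Galm (0.90), Mmgt2 (0.89) and 1700086O06Rik (0.89), for Chd3, with Gm16029 (0.87), Stam (0.84) and Rapgef1 (0.84), and for Chd6, with Phf8 (0.87), Ralgapb (0.86) and Kdm4c (0.82). It was weakest for Chd8, whose flat profile was nearest to Vps39 (0.80), Fam120b (0.80) and Ipmk (0.79).

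Index type, which coincides with library number, gave calls among the members at about the rate found over all genes in the cell types. Dual-indexed libraries differed from single-indexed ones at 7231 of 21225 genes over all nuclei (34.1%) and in 28214 of 202370 tests over the cell types (13.9%). The 175 member tests pool all nuclei, where the rate over all genes was higher, with the cell types. Of these tests 25 (23 higher and 2 lower in dual-indexed libraries) were called by edgeR, with 49 at an unadjusted p under 0.05. Of these calls 1, of Chd5, was in astrocytes, and the others were in all nuclei or excitatory neurons. The types differed in summed UMIs, with 119499947 in L2/3 IT neurons and 5448567 in microglia. The share of all genes called in each single type is not given here. Where the calls fell is thus not shown to be particular to the members or to excitatory neurons. Dual-indexed libraries were deeper, with a median of 5984 to 7467 UMIs per nucleus against 4970 to 5948. They also differed in cell content, with 419 to 884 L4/5 IT nuclei in a library against 1092 to 1285. Striatal projection neurons numbered 47 to 129 in a dual-indexed library against 0 to 34. The parts of depth and cell content were not tested.

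Chd5 moved most with index type. Over all nuclei it stood at 68.8 ± 5.17 CPM in single-indexed and 99.7 ± 13.7 CPM in dual-indexed libraries (SD, n = 4 each), a log2 change of 0.53 (adjusted p = 0.00172 by edgeR). It was called in 9 of its 19 tests, up to 0.79 in L5 ET neurons, where the means were 79.2 and 137 CPM. Chd2 was called in 7 tests, with 147 and 175 CPM over all nuclei, and Chd9 in 4. Chd6 was the only member called lower, over all nuclei (-0.16) and in L2/3 IT neurons (-0.23). Chd8, Chd3 and Chd4 were each called once, in L5 ET neurons, at 0.26, 0.34 and 0.35, and Chd1 and Chd7 in no test. The number of calls fell to between 8 and 16 when any 1 of 6 libraries was left out (8 without WT male 1, 14 without WT male 2, 16 without WT female 1, 14 without WT female 2, 12 without Chd8het male 1 and 12 without Chd8het male 2). Each genotype held the same number of both kinds of library.

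**Figure D5:**
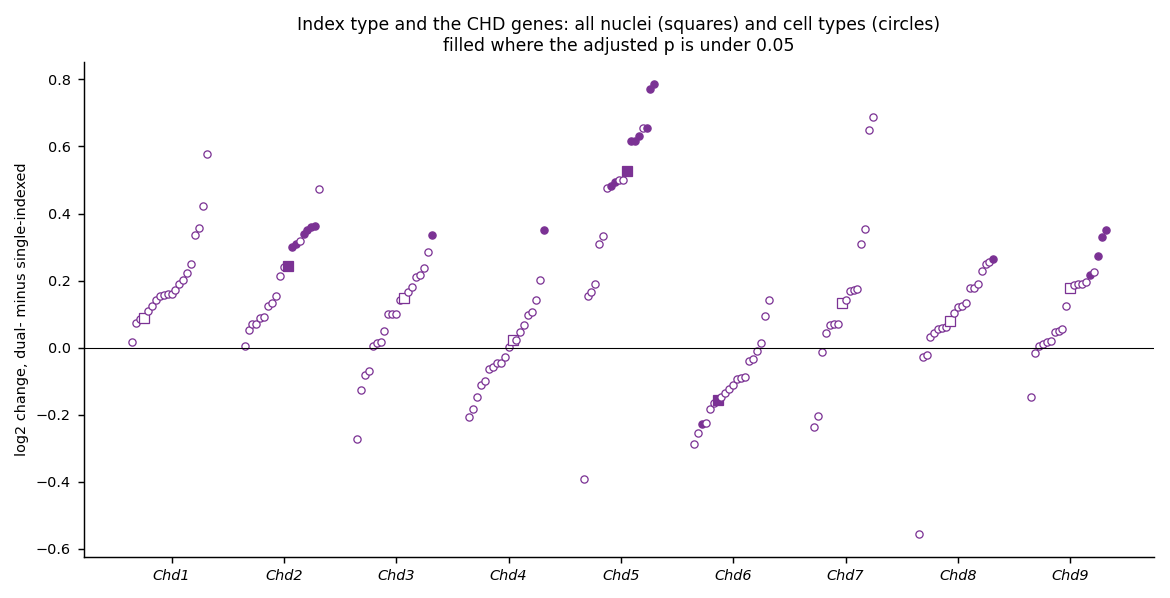
Log2 change of dual- minus single-indexed libraries for each CHD gene over all nuclei (squares) and in each cell type tested (circles), filled where the adjusted p was under 0.05. The filled points of Chd5 lie between 0.48 and 0.79, and the 2 filled points of Chd6 lie below 0.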

How the data were processed

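UMI counts per gene and barcode were deposited by the authors as filtered 10x matrices from 3′ libraries (v3 chemistry), and the submitters' processing notes name STAR 2.7.9a, STARsolo, Cell Ranger and the mm10 build. Whether introns and the strand were used is not given in the sources used here. Nuclei with at least 500 genes and at most 5% mitochondrial UMIs were kept (82168), predicted doublets were removed (4278, 5.21%), and 56 clusters were made with scanpy 1.11.5 and leidenalg 0.10.2 (Python 3.11.15) on 3000 variable genes without the members. A type needed 3 markers of its list, and 13 clusters with over 30% doublets stayed unnamed.

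Counts were summed per library and type. Genotype was tested with edgeR 4.0.16 in R 4.3.3 (quasi-likelihood, sex as a term, TMM, minimum count 10, Benjamini-Hochberg over all genes of a type, called at an adjusted p under 0.05), with DESeq2 1.42.0 as an alternative, after a test on simulated data. Levels used log2(CPM + 1). Contrasts of cell types were tested by sign flips over the 8 libraries, for the members and, for the background, for all genes with a mean of at least 10 CPM in a type. The numbers of the libraries were used as pairs in an alternative only: over all nuclei, libraries of the same sex and number deviated together (correlations 0.433 to 0.779 in 4 of 4 pairs), and the number also marks index type. All members were named, with the 3 partners of smallest p and the 3 genes of highest r per member. The members and lists were chosen with earlier results of these data known. Mural cells and striatal projection neurons were not tested for lack of nuclei. Gene coordinates are from GENCODE M21 on GRCm38.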

Additional observations from a re-analysis of the deposited data

Results flagged for a closer look

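In 88 groups of 4 libraries, 1 library stood far from the other 3 in 6 cases, on CPM scaled for library composition, and chance gives about 1 in 20. Chd8 over all nuclei was at 87.3 CPM in Chd8het male 2, with the other Chd8het libraries at 76.4 to 76.9. In astrocytes Chd8 was at 90.6 CPM in WT male 2, with the other WT libraries at 73.4 to 75.2. Chd2 in microglia was at 234 CPM in Chd8het male 2, below the others at 286 to 296. Chd6 in Lamp5 interneurons was at 313 CPM in Chd8het female 2, above the others at 291 to 294. Chd3 in OPC was at 136 CPM in WT male 1, below the others at 147. Chd7 in oligodendrocytes was at 280.2 CPM in Chd8het female 2, above the others at 257 to 258. Chd8het male 2 and Chd8het female 2 each stood out in 2 of the 6 cases.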

How the results depend on the processing

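The limits are 4 libraries a genotype, groups as small as 38 nuclei, and a genotype comparison whose only call among 202370 tests depends on the model. Genes called by genotype over the 19 types numbered 1, but 66 with the replicate block, 41 with index type added, 0 with no sex term, 6 by DESeq2's Wald test, 136 with no count filter, 0 with each nucleus named by its own marker score, and 1 to 2 when a library was left out. Over all nuclei 0 genes were called, and 2 by DESeq2's Wald test. Members called by genotype stayed at 0 under every alternative run. Chd8 over all nuclei had a log2 change of -0.01 (-0.0097 with the replicate block) and -0.059 to 0.019 when a library was left out; it was positive without WT male 2, WT female 1, WT female 2, Chd8het male 1, Chd8het female 1 or Chd8het female 2. The replicate block changed no call of a member. Over 175 pairs of member and unit, 71 kept the sign of the genotype estimate in every alternative and 104 did not. Member calls by index type, 25 in all, numbered 8 to 34 when a library was left out, an alternative chosen after seeing the data.

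In UMIs per nucleus, neurons minus glia turned for Chd1 (1.42), Chd2 (1.53), Chd4 (1.00), Chd6 (1.80), Chd8 (1.74) and Chd9 (1.07), excitatory minus inhibitory for Chd1 (0.25), Chd2 (0.41), Chd4 (0.34), Chd5 (0.29) and Chd8 (0.43), OPC minus oligodendrocytes for Chd6 (-0.0061) and Chd7 (-0.021), and microglia minus astrocytes for Chd2 (-0.46), Chd3 (-0.34), Chd5 (-0.26), Chd8 (-0.39) and Chd9 (-0.094). OPC minus oligodendrocytes also turned for Chd1 (-0.089) and Chd8 (-0.11), without a call on either scale. All of these are the same counts over another denominator. With the committed precursors added to the glia, chosen after seeing the data, neurons minus glia turned for Chd3 (-0.44), which with the stricter nucleus filter was a call the other way (0.25). OPC minus oligodendrocytes became a call for Chd1 with doublets kept (0.13) and without WT female 2 (0.15), and microglia minus astrocytes lost that of Chd1 in UMIs per nucleus (0.04). With p-values adjusted over all genes, also chosen after seeing the data, 24 of 36 contrasts were called beside 25, and Chd7 between excitatory and inhibitory neurons was the call lost. The replicate block, added for the neuron to glia difference between genotypes after seeing the data, changed no call there, and 4 pairs could not give one.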
